A study of Mus musculus with 8 samples.

Results

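Sprouty and Spred genes were followed in cultured mouse hippocampal neurons during exposure to bicuculline. The members were the genes with the symbols Spry1, Spry2, Spry3, Spry4, Spred1, Spred2 and Spred3 in the platform annotation, 7 of 19938 genes tested. Each gene was read from its transcript cluster, a group of probes along 1 transcript, and where there were several, from the one whose mean signal over the 8 arrays was highest. All 7 were measured, and all lay on every array above 4.46, the 95th percentile of the mean signals of 1027 olfactory receptor genes, which are taken here as a mark of background. No gene was removed for a low signal.

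The neurons came from ICR mice, an outbred laboratory strain, taken at E17.5, late in gestation, and were grown for 10 days. Bicuculline, an antagonist of the inhibitory GABA-A receptor, was given at 50 µM for 0, 30, 180 or 300 min. Each time had 2 biological replicates, each on 1 Affymetrix Mouse Gene ST 1.0 array of total RNA, and all 4 groups shared the strain, age and culture time. The labels say nothing of separate dissections or pooled embryos, so p-values here rest on the spread between arrays. No culture kept for 30, 180 or 300 min without bicuculline was analysed here, so bicuculline and elapsed time cannot be told apart.

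Growth factors such as BDNF and the fibroblast growth factors bind receptor tyrosine kinases, which switch on the small GTPase Ras and, through a chain of kinases, ERK. Sprouty proteins are membrane-associated inhibitors of this route that growth factor signalling itself often induces, and so form a negative feedback loop. Spred proteins share the cysteine-rich Sprouty domain, carry an EVH1 domain as well, and bring neurofibromin, a Ras GTPase-activating protein, to the membrane. In the brain, Sprouty proteins are known for limiting neurotrophin and fibroblast growth factor signals.

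The promoter of Spry2, the member with the largest change, is shown beside those of Spry1, a Sprouty gene that passed no test, and of Spred2, the only one of the 5 with a match to a CREB motif. RefSeq promoter windows of assembly GRCm38.p6 were used for 5 of the 7 genes, each as the 250 bases before the annotated start, 5′ to 3′ on the strand of the gene. Capitals mark matches to the motifs searched.
Spry2, chr14:105896820-105897069, minus strand: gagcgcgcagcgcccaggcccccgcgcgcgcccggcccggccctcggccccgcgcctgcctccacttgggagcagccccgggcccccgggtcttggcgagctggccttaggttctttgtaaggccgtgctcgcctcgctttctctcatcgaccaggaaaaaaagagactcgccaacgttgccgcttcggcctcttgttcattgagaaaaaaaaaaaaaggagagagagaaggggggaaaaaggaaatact
Spry1, chr3:37639697-37639946, plus strand: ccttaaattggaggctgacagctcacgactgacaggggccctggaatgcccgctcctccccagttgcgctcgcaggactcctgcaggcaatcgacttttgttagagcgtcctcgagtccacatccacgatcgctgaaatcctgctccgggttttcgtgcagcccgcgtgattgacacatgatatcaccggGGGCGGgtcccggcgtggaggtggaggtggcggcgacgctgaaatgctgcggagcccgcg
Spred2, chr11:19924192-19924441, plus strand: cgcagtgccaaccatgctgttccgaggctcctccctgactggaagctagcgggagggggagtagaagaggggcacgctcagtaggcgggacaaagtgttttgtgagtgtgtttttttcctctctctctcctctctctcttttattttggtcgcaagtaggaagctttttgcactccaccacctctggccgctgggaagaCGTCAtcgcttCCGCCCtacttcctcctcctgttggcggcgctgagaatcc
Both strands were searched for 8 motifs, given here with the share of 27025 promoters of the same length that held each. They were the full cyclic AMP response element TGACGTCA (1.62%), its core TGACG (17.9%), which the full element contains, and the AP-1 site TGACTCA (4.43%). The others were the CArG box of serum response factor (1.4%), the Ets site CCGGAA (12.2%), the EGR site GCGTGGGCG (0.540%), the E-box CACGTG (6.05%) and the GC box GGGCGG (32.9%). Shorter forms of the Ets site, such as GGAA, were not searched. The Spry2 window held a match to none of the 8, which says only that these letters are not in this window. The Spry1 window held 1 GC box. The Spred2 window held 1 such core, 51 bases before the start on the opposite strand, and 1 GC box. The Spred1 and Spred3 windows held 2 and 3 GC boxes and no other match. The start used for Spred3 was not the outer end of its RefSeq gene model, as it was for the others. The Spry2 and Spry1 windows were alike in composition, each with 62.4% G or C and 23 CG dinucleotides, against a median of 52% and 6 over all promoters.

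Array medians were 4.84 to 4.88 on the log2 scale, and replicate arrays correlated at r = 0.985 to 0.990 across all rows. The SD of the differences between replicates was 0.19 to 0.23. All 12 neuronal markers lay above the background mark, as did all 10 of astrocytes and radial glia. In RNA of a whole culture, fewer cells of a type and less RNA per cell cannot be told apart. Above the mark also lay 6 of 9 measured markers of the oligodendrocyte lineage, 7 of 9 of microglia and 5 of 10 of endothelial cells and pericytes. So did 5 of 8 of fibroblasts and meninges and 5 of 7 of dividing cells. Markers at or below the mark included Pdgfra, Mag and Gpr17 of the oligodendrocyte lineage and P2ry12 and Itgam of microglia. Pecam1, Tek, Cdh5, Rgs5 and Abcc9 of endothelial cells and pericytes were there as well.

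Spry2, an inhibitor that binds the ubiquitin ligase CBL and the adaptor GRB2, rose late. Its signals were 7.21 and 7.60 at 0 min, 7.50 and 7.44 at 30 min, 8.22 and 8.45 at 180 min, and 8.54 and 8.58 at 300 min. Both 30 min arrays lay between the 0 min arrays, and all 4 arrays of 180 and 300 min lay above all 4 arrays of 0 and 30 min. In order of time, the mean signals were 7.41 ± 0.27 (SD, n = 2), 7.47 ± 0.05, 8.33 ± 0.16 and 8.56 ± 0.03. The increase over 0 min was 1.90-fold at 180 min (log2 change 0.93 ± 0.14 SE, limma adjusted p = 0.0150) and 2.22-fold at 300 min (1.15 ± 0.14 SE, adjusted p = 0.00179). These were the 18th and 10th largest increases of 19938 genes. At 30 min the log2 change was 0.06, with a 95% interval of −0.24 to 0.37 and a limma adjusted p of 0.990.

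In order of level, Spry2 ran from 300 to 180 to 30 to 0 min, and of the neighbours in that order only 180 and 30 min differed beyond their spread. From 30 to 180 min Spry2 rose 1.82-fold (log2 change 0.86 ± 0.14 SE, limma adjusted p = 0.0137). From 180 to 300 min the difference was 0.22, with a 95% interval of −0.08 to 0.53 and an adjusted p of 0.863, although the arrays of these times did not overlap. The pooled late times, 180 and 300 min, exceeded the pooled early times, 0 and 30 min, 2.01-fold (log2 change 1.01 ± 0.10 SE, 95% interval 0.79 to 1.22, adjusted p = 0.00013). Without 0 min replicate 1, the lowest of the 8 arrays, the change at 180 min was 0.74 and no longer passed (adjusted p = 0.147), nor did it without 180 min replicate 2 (0.81, adjusted p = 0.0603). The change from 30 to 180 min no longer passed without either 30 min array or without 180 min replicate 2 (adjusted p of 0.141, 0.155 and 0.0906), while the change at 300 min passed without each array in turn (highest adjusted p 0.0437). When all rows of the table were tested, also those that name no gene, the changes at 180 min, at 300 min and from 30 to 180 min did not pass (limma adjusted p = 0.294, 0.219 and 0.233), and the pooled change did (0.0349).

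Spry4, a relative of Spry2 that binds the kinase TESK1, followed a smaller course of the same sign. Its signals were 6.02 and 6.27 at 0 min, 6.39 and 6.14 at 30 min, 6.68 and 6.63 at 180 min, and 6.78 and 6.61 at 300 min. The early arrays overlapped each other, the late arrays overlapped each other, and the lowest late array stood above the highest early array. The means were 6.15 ± 0.17 (SD, n = 2), 6.26 ± 0.18, 6.66 ± 0.03 and 6.69 ± 0.12 in order of time. Spry4 did not pass against 0 min at 180 min (1.42-fold, log2 change 0.51 ± 0.13 SE, limma adjusted p = 0.142) or at 300 min (1.46-fold, 0.55 ± 0.13 SE, adjusted p = 0.144). Over the pooled times it rose 1.38-fold (0.47 ± 0.10 SE, 95% interval 0.26 to 0.67, adjusted p = 0.0188). This call was lost without 0 min replicate 1 (adjusted p = 0.0999), 30 min replicate 2 (0.0985), 180 min replicate 1 (0.0560) or 300 min replicate 1 (0.0888), and the log2 change lay between 0.41 and 0.53 without each array.

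Spry1, which restrains signalling by the GDNF receptor RET in the developing kidney, passed no test. Its signals were 5.88 and 5.86 at 0 min, 5.99 and 6.03 at 30 min, 6.17 and 6.15 at 180 min, and 5.93 and 6.08 at 300 min. The 180 min arrays were the highest pair, and every treated array stood above both 0 min arrays. The log2 change from 0 min was 0.14 at 30 min, 0.29 at 180 min (95% interval 0.04 to 0.54, limma adjusted p = 0.313) and 0.14 at 300 min. Spry3, an X-linked gene in mice, gave 5.74 and 5.80 at 0 min, 5.82 and 5.51 at 30 min, 5.63 and 5.77 at 180 min, and 6.12 and 5.58 at 300 min. Its groups overlapped at all times, and the widest gap between replicates was that of 300 min. Its changes from 0 min were −0.10, −0.07 and 0.08, with intervals that reached from −0.46 to 0.44 and adjusted p of 0.891 or more.

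**Figure D1:**
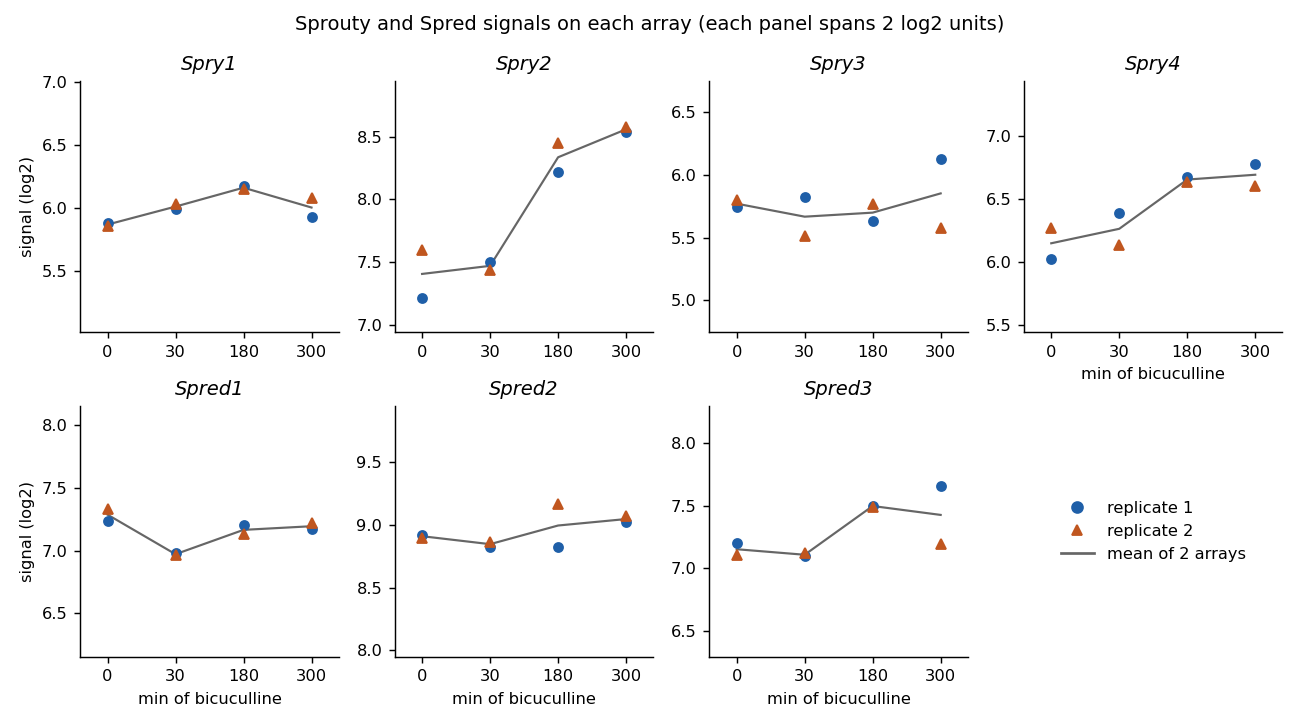
Log2 signal of the 7 genes against minutes of bicuculline (times evenly spaced), with replicate 1 as circles, replicate 2 as triangles and the mean of 2 arrays as a line; each panel spans 2 log2 units around the gene's mean. Spry2 and Spry4 stand higher on all 4 arrays of 180 and 300 min than on any array of 0 and 30 min, and Spred1 has its lowest pair at 30 min.

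The Spred genes passed no test at any time. Spred1, whose human counterpart is mutated in Legius syndrome, gave signals of 7.24 and 7.34 at 0 min, 6.98 and 6.97 at 30 min, 7.20 and 7.13 at 180 min, and 7.17 and 7.22 at 300 min. The 30 min pair lay below all 6 other arrays, and both late pairs lay below the 0 min pair. The change at 30 min was −0.32 on the log2 scale (95% interval −0.56 to −0.07). It was the only one of the 7 genes with an unadjusted p under 0.05 in that comparison, as were 1018 of all genes, and its limma adjusted p was 0.887. At 180 and 300 min the changes were −0.12 and −0.09 (adjusted p = 0.705 and 0.874).

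Spred2, a Spred protein that also binds the receptor KIT, gave 8.92 and 8.90 at 0 min, 8.83 and 8.87 at 30 min, 8.82 and 9.16 at 180 min, and 9.02 and 9.07 at 300 min. The lowest and the highest of the 8 arrays were both at 180 min. The changes from 0 min were −0.06, 0.09 and 0.14, the last with a 95% interval of −0.14 to 0.42. Spred2 was the only member with another transcript cluster, which gave changes of 0.02, −0.0028 and 0.23 and so differed in sign from the first at 30 and 180 min. Spred3, which lacks a working KIT-binding domain, gave 7.20 and 7.10 at 0 min, 7.10 and 7.12 at 30 min, 7.50 and 7.49 at 180 min, and 7.66 and 7.19 at 300 min. The 180 min arrays stood above all early arrays, whereas the 300 min arrays held the highest signal and one inside the early range. Its change was 0.34 at 180 min (95% interval 0.04 to 0.65, limma adjusted p = 0.335) and 0.33 over the pooled times (0.11 to 0.55, adjusted p = 0.122). Without 300 min replicate 2 the pooled change was 0.45 and passed (adjusted p = 0.0312).

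**Figure D2:**
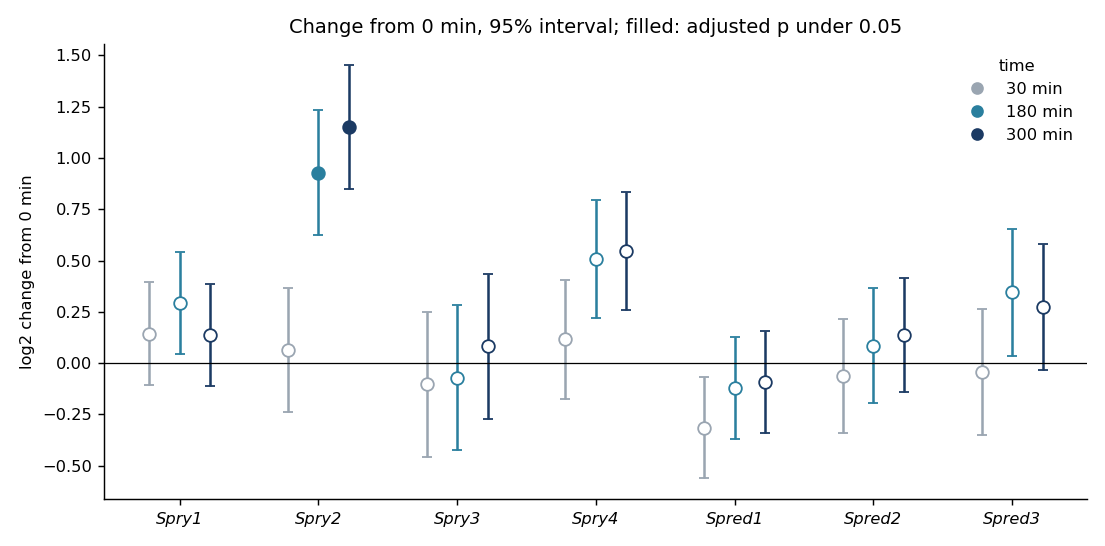
Log2 change from 0 min of the 7 genes at 30, 180 and 300 min, with 95% intervals of the limma fit and filled points where the adjusted p was under 0.05. Only Spry2 has filled points, 0.93 at 180 min and 1.15 at 300 min, and the interval of Spry4 lies above 0 at both of these times.

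Counted over the 7 genes, 0 passed at 30 min, where 0.0953% of all genes did in either direction. Spry2 alone passed at 180 min, where 0.211% of all genes passed as higher, and at 300 min, where 0.226% did. It alone passed from 30 to 180 min (0.331% of all genes higher) and in the F test of any change over the 4 times (limma adjusted p = 0.000779, 0.813% of all genes). From 180 to 300 min limma called 0 of the 7 and 0% of all genes, and 0 of the 7 and 1141 genes in all had an unadjusted p under 0.05. Over the pooled times, Spry2 and Spry4 passed, against 1.2% of all genes higher. They were also the members whose 4 late arrays all exceeded the 4 early ones, as did those of 3.47% of all genes. The comparisons with 0 min share the 0 min arrays.

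By sign alone, all 7 genes were higher in the pooled late than in the pooled early times, as were 49.0% of all genes, although 5 of the 7 did not pass. Against 0 min, 5 of the 7 were higher at 180 min and 6 at 300 min, beside 49.9% and 49.4% of all genes. Spred1 was lower than at 0 min at both times, so its pooled sign comes from its low 30 min arrays. The pooled sign of Spry3 reversed without 30 min replicate 2 or 300 min replicate 1. The median log2 difference was 0.31 over the 4 Sprouty genes and 0.14 over the 3 Spred genes, beside −0.0030 over all genes. At 180 min the median change was 0.40 for Sprouty and 0.09 for Spred genes, and at 300 min it was 0.34 and 0.14. The 2 families were not tested against each other.

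**Figure D3:**
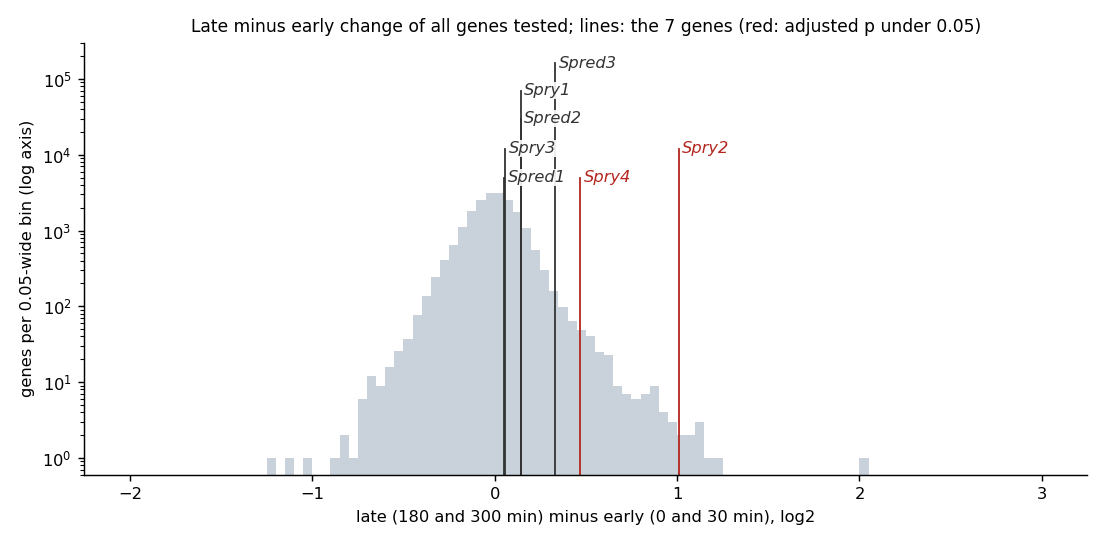
Histogram of the pooled late minus early log2 difference of all 19938 genes in bins 0.05 wide, with the count on a log axis and a vertical line at each of the 7 genes (line heights carry no value). Spry2, at 1.01, and Spry4, at 0.47, are drawn in red for an adjusted p under 0.05, and the other 5 lie between 0.05 and 0.33.

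The other genes of the pathway were read from lists by role. Among growth factor ligands, 26 of 29 were measured, and Bdnf, the main activity-induced neurotrophin, was the only one to pass against 0 min. Bdnf rose by 1.14 ± 0.13 SE on the log2 scale at 180 min (limma adjusted p = 0.000801) and by 1.18 at 300 min (0.000593), beside 0.93 and 1.15 for Spry2, and lost both calls only with all rows tested (0.113 and 0.116). Over the pooled times Kitl, the ligand of KIT, rose too (0.44 ± 0.09 SE, adjusted p = 0.0140). Of 19 measured receptor tyrosine kinases, limma called 0 against 0 min, and 1, 3 and 3 had an unadjusted p under 0.05 at 30, 180 and 300 min. Of the 19938 genes, 1018 had such a p at 30 min and at least 2434 at 180 min. At 300 min it was at least 1159 and fewer than 2527. These list counts are therefore not read as a result about the receptors. Over the pooled times Igf1r, the receptor for insulin-like growth factors, fell by 0.47 ± 0.10 SE (adjusted p = 0.0243), and Fgfr2 stood at 0.42 (adjusted p = 0.0735). The call of Kitl was lost without 0 min replicate 1, either 30 min array or 300 min replicate 1, and that of Igf1r without any of these, 180 min replicate 2 or 300 min replicate 2, with highest adjusted p over 15 alternatives of 0.127 and 0.183.

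Of the adaptors, exchange factors and kinases between receptor and ERK, 20 of 28 were analysed here and limma called 0 in any comparison, with 3 at an unadjusted p under 0.05 at 180 min and 3 at 300 min. The smallest p against 0 min were those of the Ras exchange factors Sos2 (−0.29 at 300 min, limma adjusted p = 0.499) and Rasgrf2 (−0.28 at 180 min, adjusted p = 0.341). Of 15 measured partners and regulators of Sprouty and Spred proteins, 0 passed against 0 min, and 1, 4 and 3 had an unadjusted p under 0.05 in order of time. Cblb, a ubiquitin ligase of the family that Sprouty proteins bind, had signals of 6.58 and 6.34 at 0 min, 6.59 and 6.31 at 30 min, 5.85 and 5.91 at 180 min, and 6.07 and 6.12 at 300 min. All 4 late arrays lay below all 4 early ones, and the pooled fall was 0.47 ± 0.09 SE on the log2 scale (adjusted p = 0.0172), which was lost in 5 of 15 alternatives with a highest adjusted p of 0.162, including without replicate 1 of any of the 4 times. Of 8 measured Ras GTPase-activating proteins, the class to which neurofibromin belongs, 0 passed in any comparison. At 180 min, 2 of them had an unadjusted p under 0.05, and the smaller was that of Rasa1 (−0.31, limma adjusted p = 0.333). The numbers of all genes with such a p are those given above for the receptors.

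Among 20 other feedback inhibitors of growth factor and ERK signalling, all measured, 2 passed early and another 2 late. Of all genes, 0.0953% passed at 30 min in either direction, and 0.211% and 0.226% passed as higher at 180 and 300 min. Dusp1, a nuclear phosphatase of MAP kinases, had signals of 7.33 and 7.49 at 0 min, 8.69 and 8.71 at 30 min, 7.24 and 7.46 at 180 min, and 7.38 and 7.46 at 300 min. Only its 30 min arrays were high, 2.45-fold above 0 min (log2 change 1.29 ± 0.12 SE, limma adjusted p = 0.000127), and its change at 180 min was −0.06. Dusp6, a cytoplasmic phosphatase of ERK, rose at 30 min as well (0.72 ± 0.12 SE, adjusted p = 0.0240), with a change of 0.05 at 180 min. The call of Dusp6 was lost without any 1 of the 0 or 30 min arrays, with a highest adjusted p of 0.319 over 16 alternatives. In both genes the peak came at the time at which Spry2 stood within the range of its 0 min arrays.

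Dusp4, a nuclear phosphatase of ERK, had signals of 7.17 and 7.37 at 0 min, 7.67 and 7.55 at 30 min, 8.15 and 8.02 at 180 min, and 8.45 and 8.11 at 300 min. Its late arrays stood above its early arrays, as in Spry2, and it rose 1.77-fold at 180 min (limma adjusted p = 0.0262) and 2.02-fold at 300 min (adjusted p = 0.00452). Rgs2, which shortens signalling by G proteins, had signals of 8.29 and 8.43, 8.54 and 8.51, 9.08 and 9.25, and 9.08 and 9.25 in order of time. It rose 1.74-fold at 180 min (adjusted p = 0.0154) and 1.75-fold at 300 min (adjusted p = 0.0109), and its late arrays too lay above all early arrays. At 180 min, the call of Dusp4 was lost without any 1 of the 0, 30 and 180 min arrays, and that of Rgs2 without either 0 min array or 180 min replicate 2. At 300 min, Dusp4 failed without replicate 1 of 0 or of 300 min, and Rgs2 without either 0 min array or 300 min replicate 2, and the highest adjusted p over both times and 16 alternatives was 0.316 for Dusp4 and 0.266 for Rgs2. Over the 20 genes the median change was 0.06 at 180 min and 0.0015 at 300 min, below the 0.29 and 0.14 of the Sprouty and Spred genes, with no test of that difference.

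**Figure D4:**
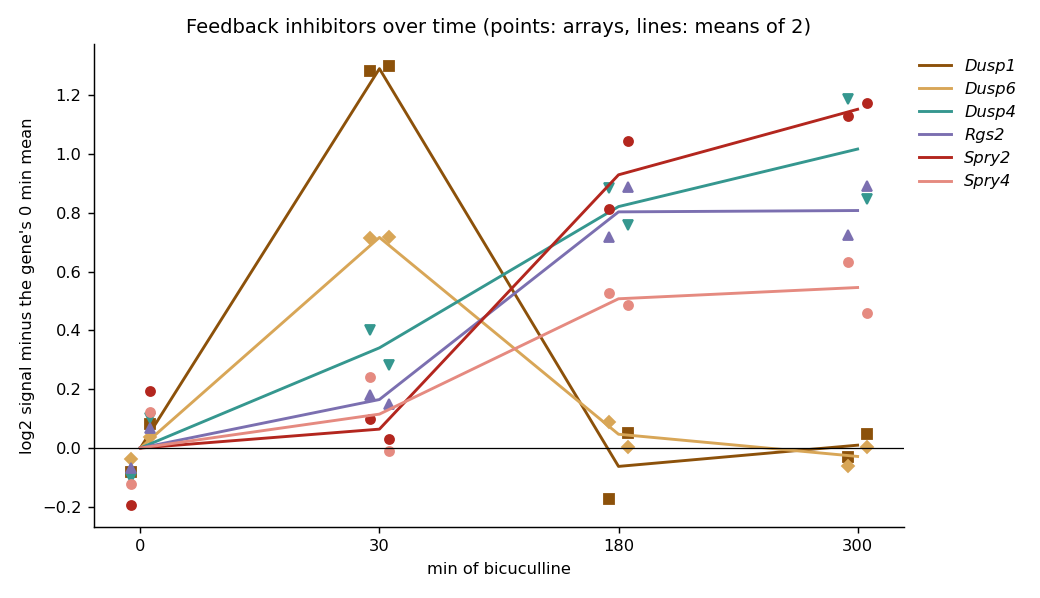
Log2 signal minus each gene's own 0 min mean for Spry2, Spry4 and the 4 other feedback inhibitors that passed against 0 min, with points for arrays and lines for means of 2 arrays, against minutes of bicuculline (times evenly spaced). Dusp1 and Dusp6 peak at 30 min at 1.29 and 0.72, whereas Dusp4, Rgs2, Spry2 and Spry4 are highest at 180 and 300 min.

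Of 22 transcription factors and targets that respond to ERK, 6 rose at 30 min, namely Fos, Fosb, Junb, Egr1, Egr2 and Ier2. For this list and that of CREB-regulated genes below, the shares of all genes passing against 0 min are those given above for the feedback inhibitors. Fos, Fosb and the Fos relative Fosl2 passed at 180 and at 300 min, where Fosl2 had log2 changes of 0.69 and 0.83. The call of Junb was lost without 0 min replicate 2 or 30 min replicate 1, that of Fosl2 without either 0 min array at both times and at 180 min also without either 30 min array or 180 min replicate 1, and that of Fos at 300 min without 0 min replicate 1. With all rows tested, 0 of these 3 passed at 180 or at 300 min, and 5 of the 6 did at 30 min. Over the pooled times, 3 of the 22 passed as higher, Fosb, Fosl2 and Etv5, and 3 as lower, Egr1, Egr2 and Ier2. Among all 19938 genes, limma called 442 in that comparison, 240 of them higher. By sign, 8 of the 22 were higher and 14 lower, with a median log2 difference of −0.079, where 49.0% of all genes were higher. The early arrays include the 30 min peaks of the 3 lower genes. They also include that of Fosb, whose means were 5.20, 7.94, 7.70 and 7.74 in order of time, so its pooled rise comes from its low 0 min arrays. Late arrays of Egr1, at 5.79 to 6.10, also lay below its 0 min arrays, at 6.47 and 6.49, without passing against 0 min. Etv5, an Ets factor induced by fibroblast growth factors, rose over the pooled times (0.48 ± 0.08 SE, limma adjusted p = 0.00908). The late arrays of Etv5, at 6.37 to 6.56, all exceeded its early arrays, at 5.95 to 6.03. The call of Etv5 was lost without 0 min replicate 1 and with every row tested, with a highest adjusted p of 0.108. Of 19 CREB-regulated genes of neurons, 4 passed at 30 min, 10 at 180 min and 10 at 300 min, all higher, with median changes of 0.13, 0.68 and 0.78. At 30 min they were Npas4 (log2 change 3.88), Arc (2.38), Nr4a1 (2.16) and Dusp1. At both late times the 10 included Npas4, Bdnf, Nr4a1, Per1 (0.91 and 0.97) and Rgs2. Without 0 min replicate 1, and likewise without 0 min replicate 2, only 3 of the 10 passed at 180 min and 5 of the 10 at 300 min. At 180 min, 6 passed without either 30 min array or 180 min replicate 1, and with all rows tested 0 passed at 180 min and 1 at 300 min.

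Over the 8 arrays, the genes with the course most like that of Spry2 were Fezf2, a transcription factor of subcortical projection neurons (Pearson r = 0.982), the splicing factor gene Prpf38b (0.981), the cyclin F gene Ccnf (0.979), the metalloprotease gene Adamts8 (0.977) and Haghl (0.976). For Spry4 they were the adhesion gene Nectin2 (r = 0.986), Rell2 (0.983), the zinc finger and homeobox gene Zfhx2 (0.981), the neuropeptide precursor gene Vgf (0.981) and the deubiquitinase family gene Usp53 (0.969). They were taken from 12887 genes with a mean above the background mark, for members whose time means ranged over at least 0.5 on the log2 scale, which only Spry2 and Spry4 did. The correlation between Spry2 and Spry4 was 0.934, rank 76 in the list of Spry2 and rank 30 in that of Spry4. Spred3 had r = 0.715 with Spry2 and 0.772 with Spry4, and Spry1 had 0.551 and 0.537. These are descriptions over 8 arrays that share their replicate spread and 4 time means.

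The late arrays of Fezf2, at 8.18 or more, lay above its early arrays, at 7.31 or less, and its change at 300 min was 1.41 (limma adjusted p = 9.2e-05), beside 1.15 for Spry2. Ccnf rose by 1.01 at 300 min (adjusted p = 0.00167). Prpf38b, Adamts8 and Haghl did not pass at 300 min, with changes of 0.60, 0.46 and 0.43 (adjusted p = 0.0516, 0.171 and 0.225). Among the 5 genes most like Spry4, Usp53 passed at 300 min (0.83, adjusted p = 0.0460), a call lost in 11 of 16 alternatives, and Vgf, with 0.52, did not (adjusted p = 0.199). Spry4 itself had 0.55 at that time.

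**Figure D5:**
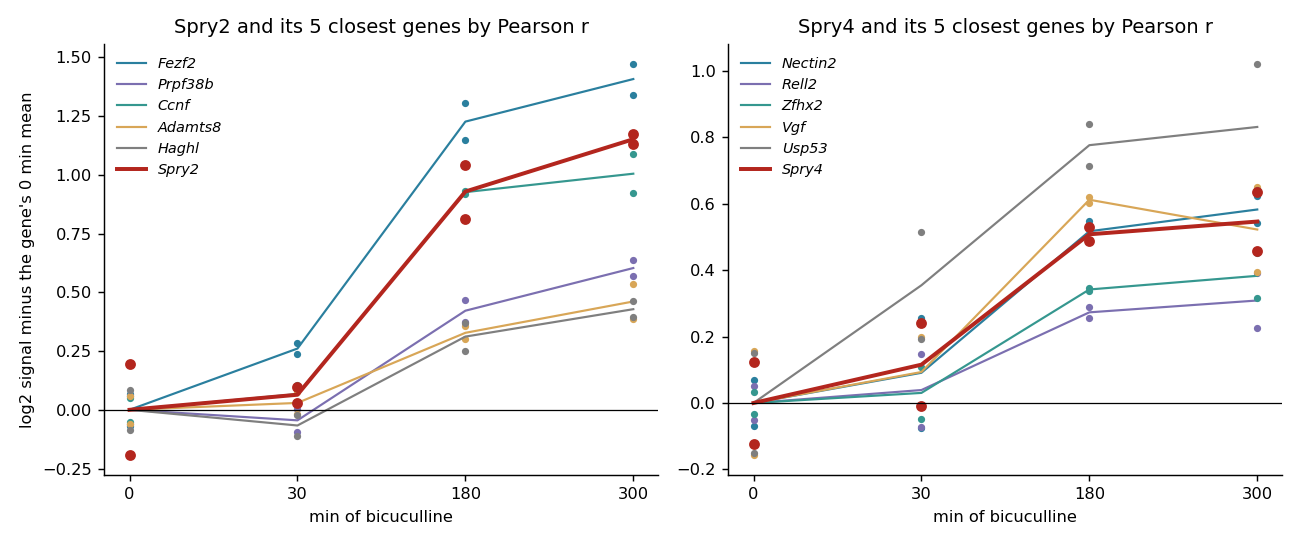
Log2 signal minus each gene's own 0 min mean for Spry2 (left, red) and Spry4 (right, red) with the 5 genes of highest Pearson r over the 8 arrays, with points for arrays and lines for means of 2 arrays, against minutes of bicuculline (times evenly spaced). Spry2 lies between Fezf2 and the other 4 genes at 300 min, and Spry4 moves close to Nectin2, with 0.55 and 0.58 at that time.

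Markers of other cells were read beside the rise of Spry2 and Spry4. Of 10 astrocyte and radial glia markers, limma called 0 over the pooled times, and 2 had an unadjusted p under 0.05. At least 1160 and fewer than 4333 of the 19938 genes had such a p in that comparison. All 10 markers were lower by sign, with a median difference of −0.11, where 49.0% of all genes were higher. The 10 signs come from the same 8 arrays and are not independent readings. The log2 of their summed level was 10.2 to 10.5 at 0 min, 10.2 to 10.4 at 30 min and 10.1 to 10.2 at both late times. Of 12 neuronal markers, 4 had an unadjusted p under 0.05 over the pooled times and only Slc17a6, which was higher late, passed. Tubb3 and Map2 went the other way without passing, with late arrays at 10.2 to 10.4 and 9.37 to 9.58, all below their early arrays at 10.5 to 10.9 and 9.61 to 9.88. The log2 of the summed level of the 12 ran from 12.8 to 13.0 over all arrays. None of the measured markers of the oligodendrocyte lineage (9), microglia (9), endothelial cells and pericytes (10), fibroblasts and meninges (8) or dividing cells (7) passed in any comparison by limma, and at most 2 of a list had an unadjusted p under 0.05 in 1 comparison. The part of these cells in the changes of Spry2 and Spry4 was not tested.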

How the data were processed

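The authors deposited 1 signal per transcript cluster and array, which the values show to be on a log2 scale (1.22 to 14.96). The software, genome build, background correction, normalization and summary of probes are not given in the sources used here; a background correction that leaves background in dim signals would shrink the changes of the dimmer members. The values were used as deposited. Of 35399 rows, 21789 had 1 gene symbol, 1621 several and 11989 none, and only the first were tested, as 19938 genes. Symbols were matched to RefSeq by gene number for 21698 rows, with 0 changed.

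limma 3.58.1 in R 4.3.3 fitted a mean for each of the 4 times to all 8 arrays (lmFit and eBayes, prior SD 0.133 on 10.1 degrees of freedom beside 4 residual ones). All p-values are two-sided, were adjusted over the 19938 genes by the Benjamini-Hochberg method and called under 0.05. SE is the moderated standard error, and a fold is 2 to the power of the log2 change. The fit was run on simulated arrays with independent normal values and variances drawn from its own fitted prior. Its assumptions hold there by construction, so that run cannot tell how far the real arrays meet them. Groups and replicate numbers came from the labels. The deviations of same-numbered arrays from their group means correlated at −0.094 to 0.092, so the numbers were not taken to pair the arrays.

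The members, lists and comparisons, the pooled one included, were chosen with earlier results of these data known. Named were the 7 members, from each list up to 6 genes called against 0 min, those with the smallest p, or, if none was called, 1 or 2 with the smallest p, and the 5 genes of highest r for each member whose time means ranged over at least 0.5. Kitl and Etv5, calls of the pooled comparison, Fosl2, and the markers given with values or as at or below the mark, were named after their values were seen. The alternatives tried were the replicate block, quantile normalization, median centring, every row tested, genes above the olfactory receptor mark only, the mean of a gene's clusters, a trended and robust variance, the arrays of the compared times only, and leaving out each array. Precision is limited by the number of arrays.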

Additional observations from a re-analysis of the deposited data

How the results depend on the processing

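Of 665 pairs of a member's change and an alternative, 631 kept their direction and their side of the threshold, 14 lost a call, 1 gained one and 19 reversed, none of these called. The pooled rise of Spry2 passed under each of its alternatives (highest adjusted p 0.0349, limma). With every row of the table tested, also those that name no gene, 0 members passed at 180 min, at 300 min, from 30 to 180 min and in the F test, and 1 over the pooled times (Spry2 adjusted p 0.294, 0.219 and 0.233 in the first 3, Spry4 pooled 0.165). With the arrays of the compared times only, 0 passed at 180 min (Spry2 adjusted p 0.0587). Leaving out 1 array gave 0 to 1 member at 180 min, 0 to 1 from 30 to 180 min and 1 to 3 over the pooled times.

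With the replicate block, the members called were the same in number in each comparison, and 19, 53, 49, 87, 0, 442 and 157 genes passed at 30, 180 and 300 min, from 30 to 180 and 180 to 300 min, pooled and by F, against 19, 66, 57, 100, 0, 442 and 162 without it. Every row tested gave 1, 5, 9, 40 and 13 genes at 180, 300, 30 to 180 min, pooled and by F. The trended variance gave 108, 91, 156 and 255 at 180, 300, 30 to 180 min and by F. Genes above the olfactory receptor mark gave 102 and 99 at 180 and 300 min, and the compared times only gave 19 and 55 at 180 and 30 to 180 min. Leaving out 1 array gave 12 to 21, 15 to 68, 17 to 61, 17 to 93, 0 to 14, 154 to 372 and 49 to 171 in the order of the block's counts.

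Quantile normalization turned the small difference from 180 to 300 min to −0.0087 for Spry4 and −0.012 for Spred1; the cause was not tested. Leaving out 1 array reversed these uncalled changes, whose ranges were −0.13 to 0.26 for Spry2, −0.26 to 0.050 for Spry3, −0.0100 to 0.24 for Spry4 and −0.093 to 0.0050 for Spred3 at 30 min, −0.085 to 0.26 for Spred2 at 180 min, −0.19 to 0.35 for Spry3 at 300 min, −0.12 to 0.19 for Spry3 and −0.022 to 0.32 for Spred2 from 30 to 180 min, −0.12 to 0.43 for Spry3, −0.050 to 0.13 for Spry4, −0.0061 to 0.064 for Spred1, −0.12 to 0.22 for Spred2 and −0.30 to 0.16 for Spred3 from 180 to 300 min, and −0.079 to 0.19 for Spry3 pooled. Of 96 calls of list genes, 68 were lost in at least 1 alternative and 0 reversed. With 2 arrays a time, changes under about 0.3 lay within the intervals of most members.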
